A study of Mus musculus with 12 samples.

Results

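The difference between the effects of 2 gene knockouts on resting naive CD4 T cells was measured gene by gene. For each gene the change in Mettl3 knockout cells against wild type cells of the same set was taken, and the change in Nudt21 knockout cells against their own wild type cells was subtracted from it. A positive difference thus means that a transcript stood higher, relative to its own wild type, in the Mettl3 knockout than in the Nudt21 knockout. The libraries were chosen by genotype and time alone, which took 9 of the 12 libraries, and all 12511 genes tested entered. All groups were naive CD4 T cells sorted from spleen and lymph nodes of C57BL/6 mice and taken at 0 h, that is before stimulation through CD3 and CD28. They were Mettl3 wild type (libraries 1, 2 and 3), Mettl3 knockout (libraries 1 and 3), Nudt21 wild type (libraries 1 and 2) and Nudt21 knockout (libraries 1 and 2). The other 3 libraries, wild type cells of the Mettl3 set after 48 h of stimulation, entered the filter on low values, the estimate of spread and the other scalings. They were not part of any change in the main fit. The labels name no promoter or Cre line and no deleted exon, and they do not say whether replicates were separate animals, so p-values reflect only how these libraries vary, which may be technical.

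Mettl3 is the catalytic subunit of the enzyme complex that writes N6-methyladenosine (m6A) on messenger RNA, a mark that readers such as the Ythdf proteins use to direct RNA decay and translation. Nudt21 is the RNA-binding subunit of cleavage factor I, which binds upstream of polyadenylation sites and takes part in the choice between proximal and distal sites, and so in the length of 3′ ends. In naive T cells, m6A on transcripts of the SOCS family, which inhibit cytokine signalling, is known for its part in the response to interleukin 7. The series title joins m6A, alternative polyadenylation and mTOR signalling.

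The targeted genes followed their labels. Mettl3 stood at 26.7, 28.7 and 25.3 FPKM (fragments scaled by gene length and library total) in Mettl3 wild types, at 5.35 and 6.45 FPKM in Mettl3 knockout libraries, at 34.4 and 33.9 FPKM in Nudt21 wild type and at 29.1 and 26.1 FPKM in Nudt21 knockout libraries. Its difference was -1.72 on the log2(FPKM + 1) scale (SE 0.12, limma adjusted p = 0.000131). Nudt21 had the opposite sign at 1.15 (SE 0.1, limma adjusted p = 0.000245), with 7.57 and 6.69 FPKM in its own knockout libraries and 16.9 to 19.2 FPKM in the other 7. Without the deleted exons, the remaining levels do not measure functional transcript.

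Cd4, a marker of the labelled cell type, lay between 171 and 287 FPKM in every library at 0 h, whereas Cd8a did not exceed 1.74 FPKM. The other CD8 gene, Cd8b1, was higher in every knockout library than in the wild types, with values given below. Mettl3 knockout 3 stood apart. Its log2 values correlated with those of Mettl3 knockout 1 at r = 0.9252 over genes, against 0.9922 between the Nudt21 knockouts and at least 0.9906 between wild types of a set. The summed FPKM of all 26 listed myeloid markers, of which 18 passed the filter on low values, was 583 in that library and 7.67 in Mettl3 knockout 1. That sum was 13.9 to 15.5 in Mettl3 wild types, 51.7 to 113 in Nudt21 wild types and 268 to 382 in Nudt21 knockouts. All 20 listed B cell markers (19 passed) summed to 2480 FPKM in Mettl3 knockout 3 and 266 in Mettl3 knockout 1. Results are therefore also given without each Mettl3 knockout library where that mattered, and in bulk samples fewer cells of a type and less RNA per cell cannot be told apart. Sequencing depth could not be read from FPKM.

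The effects of the knockouts differed at many genes. Of 12511 genes, 3164 (25.3%) passed the test of the difference, 2233 (17.8%) higher and 931 (7.44%) lower (limma, adjusted p under 0.05). The changes of the Mettl3 and Nudt21 knockout libraries did not overlap at 8500 genes (67.9%), so a lack of overlap alone is common. At least 2-fold differences were rarer, at 282 genes higher (2.25%) and 150 lower (1.2%). The split depends on scaling, because the median difference over all genes was 0.12 and not 0. With median-ratio scaling that median was 0.01 and 1299 genes were higher and 1439 lower, so that higher genes made up 47.4% of calls against 70.6%. With quantile scaling, 1072 were higher and 1141 lower, or 48.4% higher. Small positive differences should thus be read against a shift of 0.12.

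**Figure D1:**
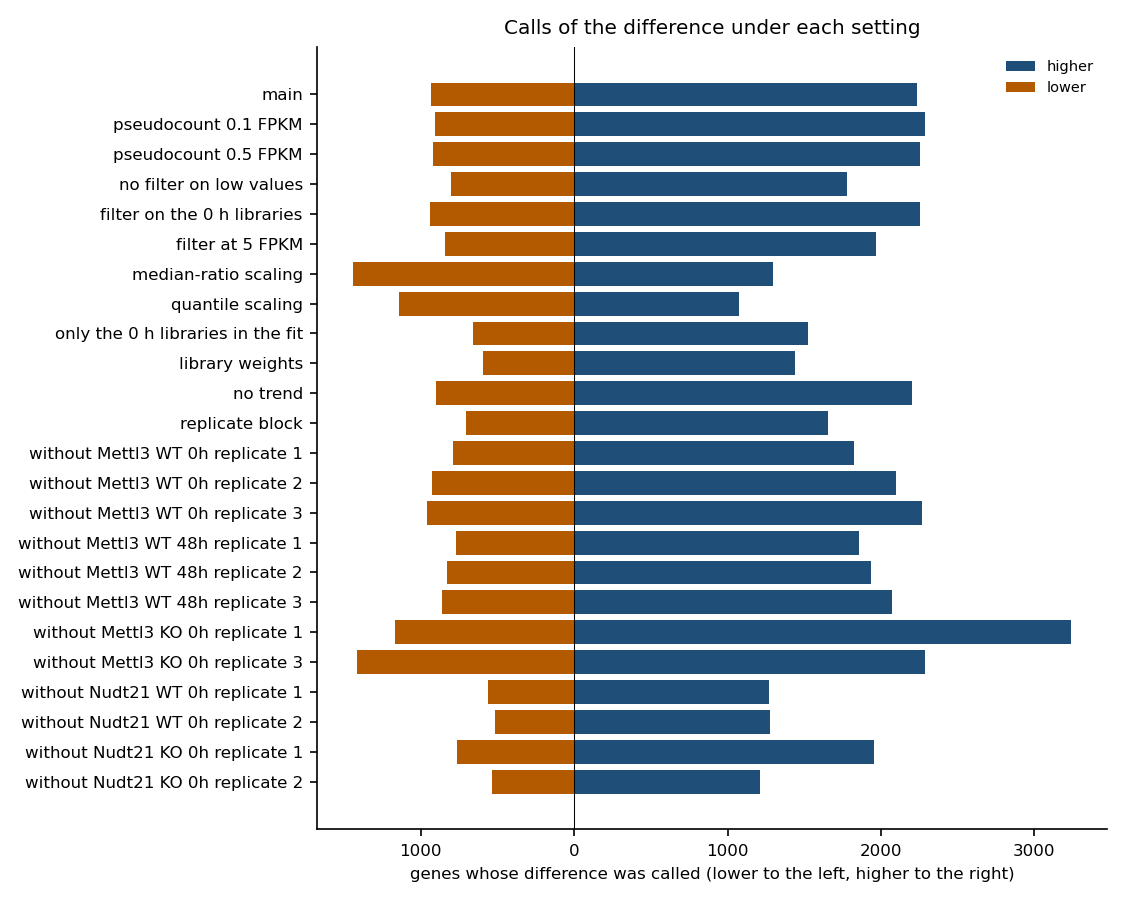
Number of genes whose difference was called (limma, adjusted p under 0.05) under each processing setting, with higher genes to the right and lower genes to the left of 0. The 2 scaling settings turn the balance from 2233 higher and 931 lower to near equal numbers.

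The knockouts also shared part of their response. Each was called at a like number of genes, 3610 for Mettl3 (28.9%) and 3475 for Nudt21 (27.8%), and these comparisons share no library. The 1141 genes called in both were 31.6% of the Mettl3 calls and 32.8% of the Nudt21 calls. Among them 291 rose in both, 452 fell in both, 282 rose with Mettl3 and fell with Nudt21 loss, and 116 fell with Mettl3 and rose with Nudt21 loss. Over the 12511 genes the effects correlated at r = 0.478, a description across genes, which are not independent replicates. By library, Mettl3 knockout 1 correlated with the Nudt21 knockouts at 0.128 and 0.103, and Mettl3 knockout 3 at 0.54 and 0.505. The likeness over all genes was far higher for the library with the high myeloid and B cell marker sums, and the part of other cells in it was not tested.

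**Figure D2:**
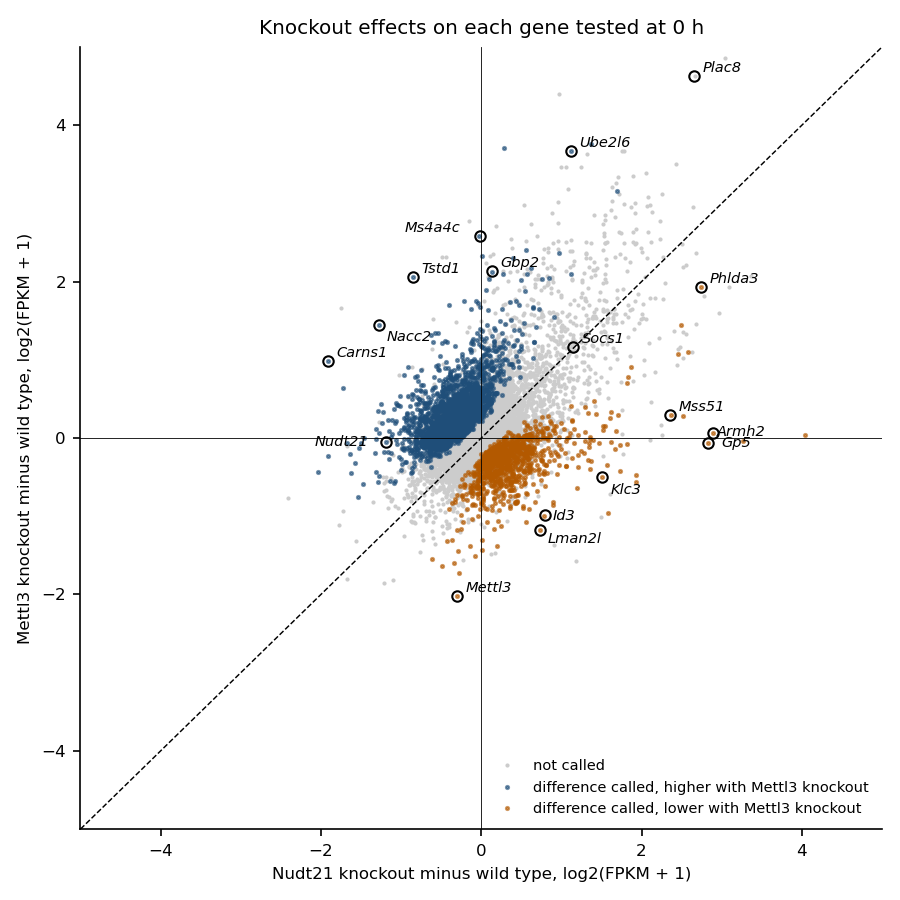
Each of the 12511 genes by its change in the Nudt21 knockout (horizontal) and in the Mettl3 knockout (vertical), both as log2(FPKM + 1) minus own wild type. Coloured points passed the test of the difference; genes on the dashed diagonal have equal changes, and Socs1 lies on it (1.15 and 1.16).

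The strongest positive differences belonged to genes with unlike functions that rose in one knockout and fell in the other. Carns1, which encodes carnosine synthase (ENSMUSG00000075289, mm10 chromosome 19, 4164324 to 4175479, minus strand), stood at 23, 26.2 and 19.4 FPKM in Mettl3 wild type and at 54.6 and 38.3 FPKM in Mettl3 knockout libraries. In the Nudt21 set it stood at 19.9 and 21.3 FPKM in wild type and at 4.39 and 5.16 FPKM in knockout libraries. No knockout library overlapped with its wild types, and the sets' wild types lay in the same range. The change was 0.98 with Mettl3 loss and -1.91 with Nudt21 loss, a difference of 2.89 (SE 0.27, limma adjusted p = 0.000346). An antisense gene, Gm17552, overlaps Carns1 and had a difference of 2.36, and reads of the pair may not be separable because the use of strand is not given in the sources used here.

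Tstd1, a small gene for a protein with a sulfurtransferase-like domain (ENSMUSG00000103711, chromosome 1, 171418872 to 171420352), had 2.36, 2.54 and 1.71 FPKM in Mettl3 wild type and 12.5 and 12 FPKM in Mettl3 knockout libraries. It had 2.64 and 3.08 FPKM in Nudt21 wild type and 1.2 and 1.07 FPKM in Nudt21 knockout libraries. The difference was 2.91 (SE 0.18, limma adjusted p = 7.16e-05). Its start overlaps the end of Usf1 on the same strand, which had a difference of 0.06. Nacc2, a BTB-domain transcriptional repressor gene, rose from 4.47, 5.41 and 5.59 FPKM to 21.2 and 11.6 FPKM with Mettl3 loss and fell from 6.4 and 5.77 FPKM to 1.8 and 2.03 FPKM with Nudt21 loss (difference 2.73, SE 0.29, limma adjusted p = 0.000634). In each of these genes all 4 knockout libraries lay outside the range of their wild types. The same crossed pattern at smaller size was found in Pmm1, a phosphomannomutase gene (1.51), Il3ra, the alpha chain of the interleukin 3 receptor (1.78), and Doc2g (1.43). Doc2g lies 1210 bases after Nudt8 on the same strand, which had a difference of 1.37.

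Further genes rose with Mettl3 loss and did not pass with Nudt21 loss. Ms4a4c, an interferon-inducible membrane protein gene, stood at 57.4 and 50.2 FPKM in Mettl3 knockout libraries against 4.79, 6.5 and 16.4 FPKM in their wild types, and at 8.35 to 8.95 FPKM in all 4 Nudt21 libraries (difference 2.61, SE 0.53, limma adjusted p = 0.00783). Myo6, an unconventional myosin gene, held 38.9 and 38.2 FPKM in Mettl3 knockouts against 7.49, 12.2 and 14.8 FPKM in wild types (difference 2.1), and Cd200r3, a CD200 receptor family gene, 4.66 and 10.6 FPKM against 1.86 to 2.92 (difference 1.91). Col20a1, a collagen gene, had a difference of 1.94. These groups did not overlap within the Mettl3 set, although Ms4a4c and Myo6 varied widely among the wild types. Gzmb, which encodes granzyme B, and Trim16 had large differences of 2.39 and 2.32 that rested on unequal libraries. Gzmb stood at 6.78 FPKM in Mettl3 knockout 1 and 33.6 FPKM in knockout 3, and Trim16 at 2.54 and 8.61 FPKM. Gzmb did not pass with only the 0 h libraries in the fit (limma adjusted p = 0.0725) and Trim16 did not pass without Nudt21 wild type 2 (limma adjusted p = 0.0857).

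**Figure D3:**
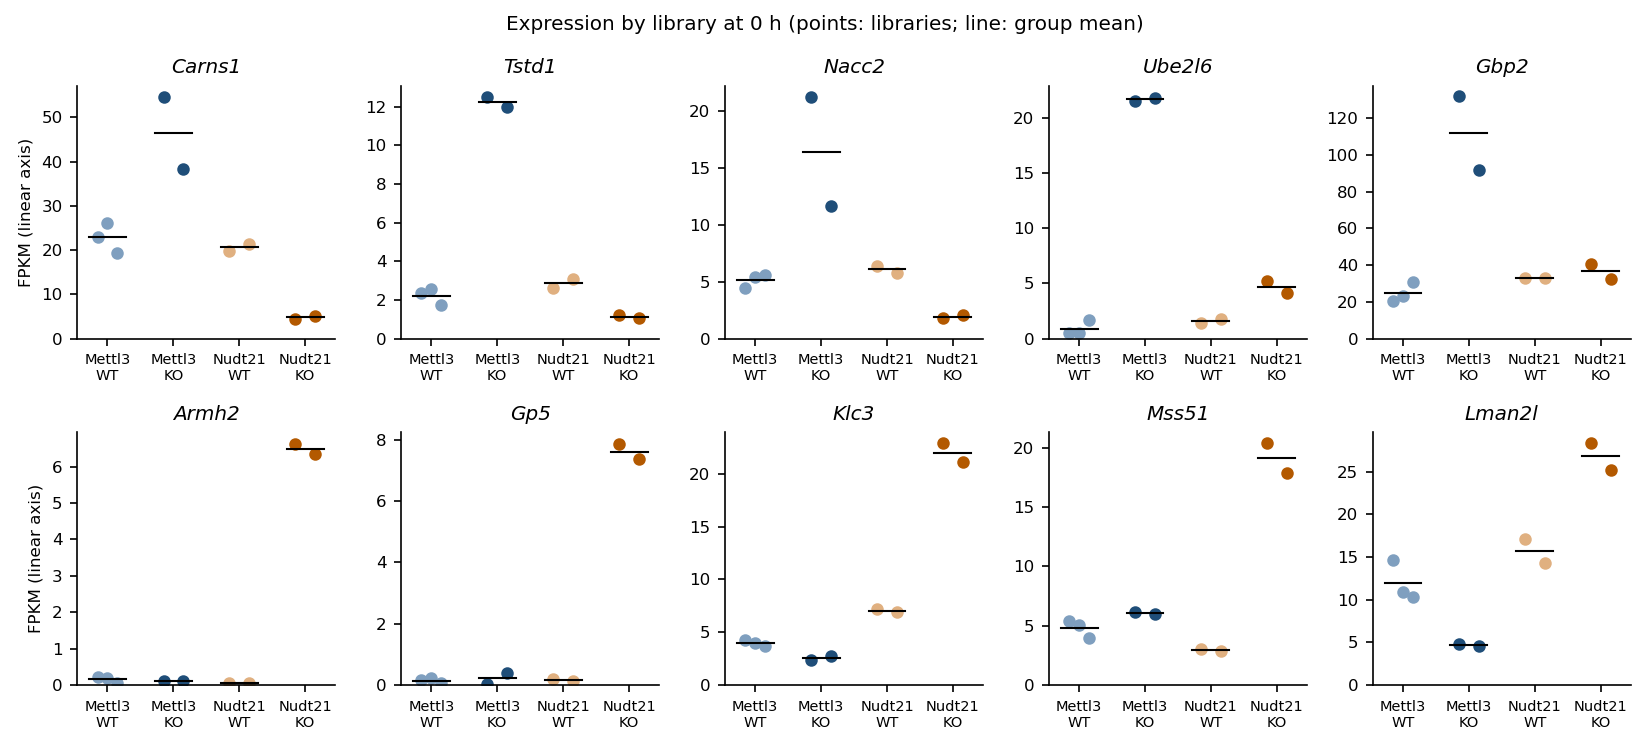
FPKM (linear axis from 0) of 10 leading genes in each of the 9 libraries at 0 h; points are libraries and lines are group means. The upper genes are higher in both Mettl3 knockout libraries, and Armh2 and Gp5 lie at or under 0.396 FPKM outside the Nudt21 knockouts.

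The strongest negative differences came mainly from genes gained in the Nudt21 knockout. Armh2, which encodes a protein with armadillo-like helical repeats (ENSMUSG00000085861, chromosome 13, 24741232 to 24746592), was at 6.61 and 6.36 FPKM in the Nudt21 knockout libraries. The other 7 libraries at 0 h held 0.0485 to 0.223 FPKM. The difference was -2.89 (SE 0.15, limma adjusted p = 2.07e-05), the smallest p of all genes named here, and the change with Mettl3 loss was -0.06 (limma adjusted p = 0.685).

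Gp5, which encodes platelet glycoprotein V (ENSMUSG00000047953, chromosome 16, 30307685 to 30310779, minus strand), had the same shape, with 7.85 and 7.36 FPKM in Nudt21 knockouts and 0.0319 to 0.396 FPKM in the other 7 libraries (difference -2.82, SE 0.19, limma adjusted p = 0.000131). Ppbp, another platelet gene, stood at 2.41 and 1.06 FPKM in Nudt21 knockouts and 0.413 and 0.336 FPKM in their wild types. The summed erythroid and platelet markers reached 277 FPKM in Mettl3 knockout 3, where Gp5 held 0.396 FPKM, 257 to 338 FPKM in Nudt21 wild types, where it held 0.194 and 0.134 FPKM, and at least 479 FPKM in Nudt21 knockouts, and their part in the Gp5 difference was not tested. Gp5 starts 1644 bases after the end of Atp13a3 on the same strand, and Atp13a3 changed by 0.3 with Nudt21 loss. Mss51, a gene for a protein linked to mitochondrial metabolism, stood at 20.4 and 17.9 FPKM in Nudt21 knockouts against 3.01 and 2.83 FPKM in wild types, and at 6.17 and 5.98 FPKM in Mettl3 knockouts against 3.95 to 5.39 FPKM (difference -2.07, SE 0.16, limma adjusted p = 0.000169). It lies 2463 bases after Ppp3cb on its strand. Slc39a10, a zinc importer gene, stood at 20.2 and 15.6 FPKM in Nudt21 knockouts against 5.42 and 5.2 FPKM in wild types, with 4.66 and 5.32 FPKM in Mettl3 knockouts (difference -1.92, limma adjusted p = 0.000522). The overlapping noncoding gene Gm28151 moved with it (-1.41). Ccr9, a chemokine receptor of gut homing, stood at 7.48 and 5.51 FPKM in Nudt21 knockouts and at no more than 2.38 FPKM in the other libraries at 0 h (difference -1.61).

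Other genes fell with Mettl3 loss and rose with Nudt21 loss. Klc3, a kinesin light chain gene, went from 4.31, 4.02 and 3.67 FPKM to 2.33 and 2.73 FPKM in the Mettl3 set and from 7.18 and 6.91 FPKM to 22.9 and 21.1 FPKM in the Nudt21 set (difference -2.01, SE 0.14, limma adjusted p = 0.000131). Its wild types differed between the sets as well (-0.69, limma adjusted p = 0.00193). Lman2l, which encodes a lectin of the early secretory pathway, went from 14.6, 10.9 and 10.3 FPKM to 4.75 and 4.52 FPKM and from 17.1 and 14.3 FPKM to 28.4 and 25.2 FPKM (difference -1.92, SE 0.2, limma adjusted p = 0.000554). Both genes had every knockout library beyond its wild types. On the opposite strand Klc3 overlaps Ercc2 (-0.32) and Lman2l overlaps Fer1l5 (-0.48). Id3, an inhibitor of E proteins that is high in naive T cells, stood at 11.2 and 15 FPKM in Mettl3 knockouts against 24.7, 27.7 and 28.1 FPKM, and at 48.6 and 49.8 FPKM in Nudt21 knockouts against 27.7 and 28.5 FPKM (difference -1.78, SE 0.2, limma adjusted p = 0.000705). Sp6, a zinc finger factor gene (-2.54), the spermine oxidase gene Smox (-1.24), Gtf2ird1 (-1.41) and the histone gene Hist3h2a (-1.72) moved likewise, whereas Hist1h4n (-1.75) did not pass without Nudt21 wild type 1 (limma adjusted p = 0.0763) or Nudt21 knockout 2 (0.0641). Near-identical histone copies share reads and Hist3h2a overlaps Trim17, so both histone values are uncertain.

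Interferon-stimulated genes were higher with Mettl3 loss than with Nudt21 loss. These genes respond to interferons through a factor that holds STAT2 and IRF9, and many carry an interferon-stimulated response element, the paired motif GAAANNGAAA, before their start. Of 19 interferon-inducible GTPases tested, which act on pathogen vacuoles, 8 were higher in the difference and none lower, where 17.8% and 7.44% of all genes were, at a median of 0.98 against 0.12 over all genes. The count was 6 higher and 2 lower without Mettl3 knockout 1, 10 and 0 without knockout 3, 7 and 1 with median-ratio scaling, and 5 and 0 without Nudt21 wild type 2 or Nudt21 knockout 2. Of 62 other interferon-stimulated genes 20 were higher and none lower (median 0.56). The GTPases' own changes had medians of 1.71 and 1.4 in Mettl3 knockouts 1 and 3. In Nudt21 knockouts 1 and 2 the medians were 0.48 and 0.27. Both Mettl3 knockout libraries thus stood above both Nudt21 knockouts, and the part of other cells in this was not tested. The Nudt21 knockout raised 4 of the 19 GTPases (8.73% of all genes rose) and the Mettl3 knockout 17 (16.8%).

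Promoter sequences are shown for interferon-stimulated genes because most GTPase promoters held the motif, and for Tstd1, which is in no interferon list, as a leading gene beside them. They run from 250 bases before to 50 after the annotated start and come from RefSeq (GRCm38.p6), written 5′ to 3′ on the gene's strand. Capitals mark GAAANNGAAA on either strand, where it reads TTTCNNTTTC on the other, and 2 overlapping matches are joined in Gbp3. Regions are chr3:142620413-142620712 for Gbp2, chr3:142559794-142560093 for Gbp3, chr3:142496684-142496983 for Gbp5, chr10:128270248-128270547 for Stat2, chr2:84798578-84798877 for Ube2l6 and chr1:171418783-171419082 for Tstd1, all on the plus strand.
Gbp2: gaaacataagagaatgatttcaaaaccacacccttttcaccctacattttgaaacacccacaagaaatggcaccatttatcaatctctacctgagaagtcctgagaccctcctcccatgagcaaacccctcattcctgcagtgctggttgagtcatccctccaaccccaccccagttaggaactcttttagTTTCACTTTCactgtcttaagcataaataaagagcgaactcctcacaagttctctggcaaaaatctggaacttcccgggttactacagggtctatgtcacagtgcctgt
Gbp3: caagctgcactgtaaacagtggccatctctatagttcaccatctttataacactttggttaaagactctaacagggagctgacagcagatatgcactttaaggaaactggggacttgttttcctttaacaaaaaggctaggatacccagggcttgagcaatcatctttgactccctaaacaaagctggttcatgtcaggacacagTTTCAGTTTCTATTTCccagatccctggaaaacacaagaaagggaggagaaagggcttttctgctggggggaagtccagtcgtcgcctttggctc
Gbp5: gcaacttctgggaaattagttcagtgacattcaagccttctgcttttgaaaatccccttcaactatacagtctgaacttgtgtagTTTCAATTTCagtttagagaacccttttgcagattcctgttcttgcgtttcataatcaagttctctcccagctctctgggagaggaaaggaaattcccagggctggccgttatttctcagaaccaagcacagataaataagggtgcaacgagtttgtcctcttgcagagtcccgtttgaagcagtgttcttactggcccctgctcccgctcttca
Stat2: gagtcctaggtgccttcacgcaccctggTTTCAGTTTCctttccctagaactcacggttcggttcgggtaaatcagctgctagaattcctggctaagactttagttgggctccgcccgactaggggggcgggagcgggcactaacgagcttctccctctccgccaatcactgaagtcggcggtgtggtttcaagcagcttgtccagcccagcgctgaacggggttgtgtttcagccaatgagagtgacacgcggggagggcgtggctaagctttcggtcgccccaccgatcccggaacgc
Ube2l6: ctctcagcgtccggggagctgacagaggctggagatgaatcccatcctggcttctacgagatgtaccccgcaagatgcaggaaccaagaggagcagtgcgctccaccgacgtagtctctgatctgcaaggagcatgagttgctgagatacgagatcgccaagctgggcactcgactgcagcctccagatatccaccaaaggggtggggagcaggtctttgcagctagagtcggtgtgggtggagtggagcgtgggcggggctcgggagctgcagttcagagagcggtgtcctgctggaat
Tstd1: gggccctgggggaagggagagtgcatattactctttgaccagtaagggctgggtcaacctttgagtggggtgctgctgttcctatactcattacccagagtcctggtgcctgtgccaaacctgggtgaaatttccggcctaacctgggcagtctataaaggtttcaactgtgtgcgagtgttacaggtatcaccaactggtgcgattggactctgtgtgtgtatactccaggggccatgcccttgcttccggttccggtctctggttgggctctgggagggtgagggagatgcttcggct
The motif stood in the promoters of 11 of 13 GTPases with an entry (84.6%) and 26 of 51 other interferon-stimulated genes (51%), against 3.44% of all 32851 promoters and 3.99% of the 9346 genes tested that have an entry. Among genes whose difference was called at least 2-fold higher, 16 of 210 promoters held it (7.62%), and of those at least 2-fold lower 4 of 69 (5.8%). The windows of Ube2l6 and Tstd1 do not hold these letters, nor does a second start of Gbp3 (chr3:142560106-142560405), whereas the window of Socs1, whose difference was 0.01, holds 2 matches. Promoters of Armh2 and Carns1 are not printed. A match is a description of the letters and not a binding site.

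Gbp2, a guanylate-binding protein gene on chromosome 3 (142620602 to 142638008), stood at 132 and 91.6 FPKM in Mettl3 knockouts against 20.2, 23 and 31 FPKM in their wild types, and at 40.8 and 32.6 FPKM in Nudt21 knockouts against 33.1 and 33.2 FPKM (difference 2, SE 0.31, limma adjusted p = 0.00242). Gbp3 stood at 20 and 20.6 FPKM in Mettl3 knockouts and 6.82 and 4.99 FPKM in Nudt21 knockouts (difference 1.91), and Gbp5 at 29.9 and 20.5 FPKM and 10.1 and 7.53 FPKM (difference 1.81). All 3 were clear of their wild types in the Mettl3 set, whereas in the Nudt21 set only Gbp3 was, and since Gbp genes share reads, single values are uncertain. Ube2l6, which encodes the conjugating enzyme for ISG15, changed in both knockouts but to different levels. It stood at 0.462, 0.469 and 1.64 FPKM in Mettl3 wild type and at 21.5 and 21.8 FPKM in Mettl3 knockouts, and at 1.45 and 1.76 FPKM in Nudt21 wild type and 5.22 and 4.09 FPKM in Nudt21 knockouts (difference 2.55, SE 0.4, limma adjusted p = 0.00266).

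Stat2, a subunit of the factor that binds the motif, stood at 62.8 and 50.7 FPKM in Mettl3 knockouts against 24.3 to 25.9 FPKM, and at 30.1 FPKM in both Nudt21 knockouts against 26.1 and 28.4 FPKM (difference 0.99, SE 0.15, limma adjusted p = 0.00209). Among other members the viral RNA sensors Ifih1 (0.56) and Dhx58 (0.75), the kinase Eif2ak2 (0.52), Oas2 (0.72), Oasl2 (1.28) and Zbp1 (0.83) were higher. Of 19 genes of MHC class I presentation 3 were higher, no larger a share than the 17.8% of all genes: Psmb9, an immunoproteasome subunit that overlaps Tap1 on the opposite strand (0.95), and the peptide transporters Tap1 (0.63) and Tap2 (0.56). The Tap calls did not hold: Tap1 lost its call in 15 of 24 other settings and Tap2 in 8, among them median-ratio scaling (limma adjusted p = 0.0912 and 0.071) and each fit without a Nudt21 library. The count of other interferon-stimulated genes fell from 20 to 9 with median-ratio scaling and to 7 without Nudt21 wild type 2 or Nudt21 knockout 2, while 13 were higher and 1 lower without Mettl3 knockout 1 and 23 and 2 without knockout 3.

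**Figure D4:**
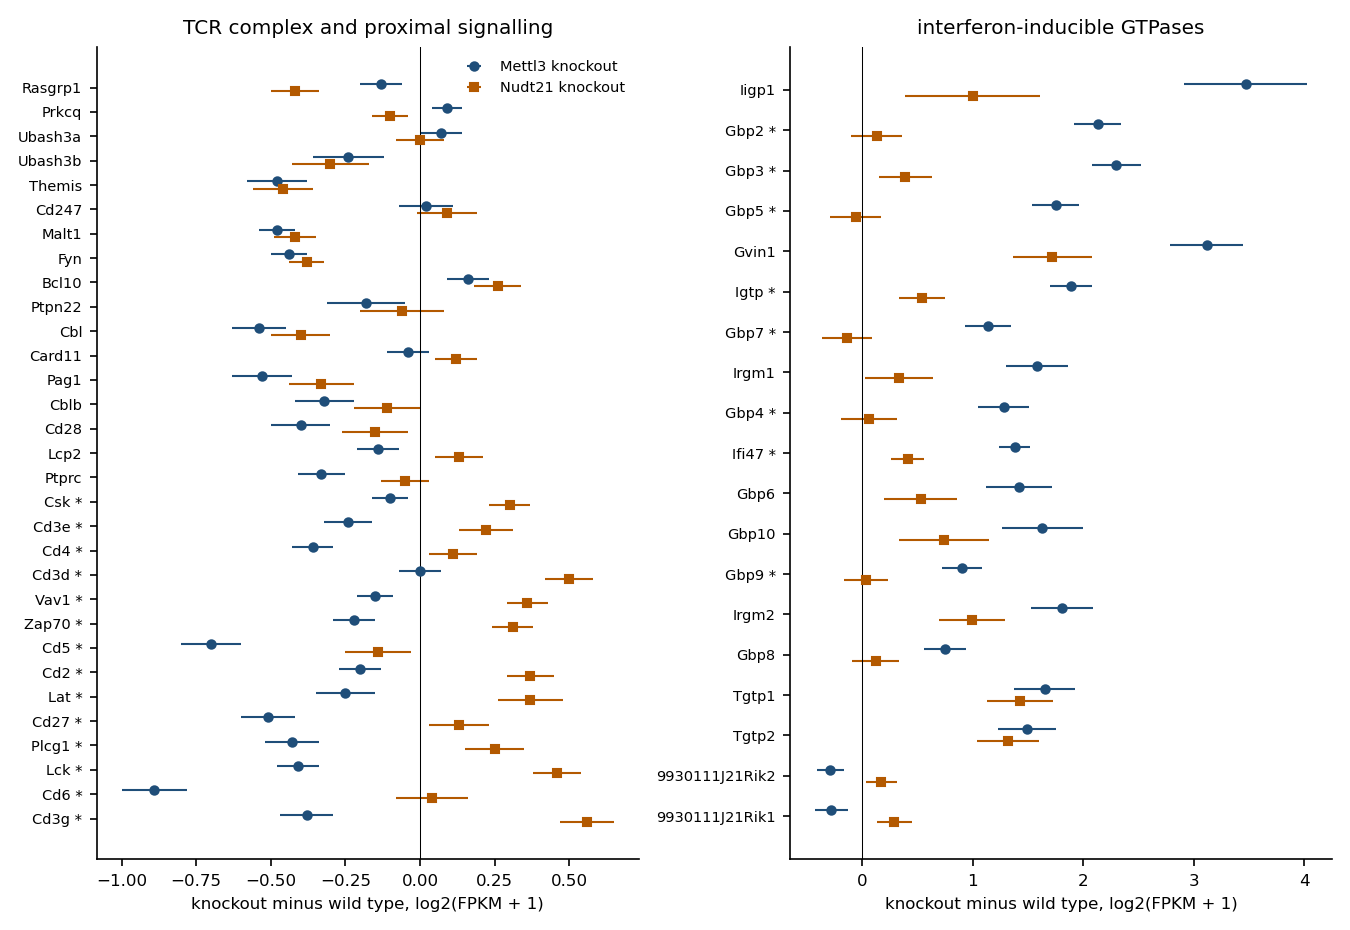
Change of members of 2 gene lists in the Mettl3 knockout (circles) and the Nudt21 knockout (squares), with limma standard errors; an asterisk marks a called difference. Most TCR genes lie left of 0 in the Mettl3 knockout and mostly near or right of 0 in the Nudt21 knockout, and GTPases lie right of 0 in the Mettl3 knockout, apart from the 9930111J21Rik genes.

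Genes of the T cell receptor (TCR) complex and its first signalling steps were lower in the difference. Of 32 tested, 15 were lower, where 7.44% of all genes were, and none higher, at a median of -0.28. With Mettl3 loss 17 of them fell and none rose (12% of all genes fell), and with Nudt21 loss 9 rose and 6 fell (19% of all genes fell). The median change of the list was -0.3 and -0.25 in Mettl3 knockouts 1 and 3 and 0.05 and 0.09 in Nudt21 knockouts 1 and 2. Cd3g, a chain of the CD3 complex, stood at 198 and 201 FPKM in Mettl3 knockouts against 235, 293 and 254 FPKM, and at 389 and 416 FPKM in Nudt21 knockouts against 280 and 264 FPKM (difference -0.94, SE 0.13, limma adjusted p = 0.00139). Lck, the kinase that phosphorylates CD3 chains, stood at 296 and 284 FPKM against 395, 408 and 355 FPKM, and at 572 and 615 FPKM against 440 and 421 FPKM (difference -0.87, SE 0.1, limma adjusted p = 0.000978). In both genes each knockout group lay outside its wild types, in opposite directions. Cd6, a co-receptor, had the same difference as Cd3g (-0.94) but fell with Mettl3 loss (-0.89) with no call in the Nudt21 knockout (0.04). The kinase Zap70 (-0.53), the adaptor Lat (-0.62), Plcg1 (-0.68), Cd4 (-0.47) and Cd3d (-0.5) were also lower. These differences were mostly under 2-fold, and the count was 12 to 17 with the other scalings and with library weights and 11 without Nudt21 wild type 2, and 1 gene was higher without Mettl3 knockout 1.

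The receptor's own gene segments moved in the same direction, a set looked at after its values were seen. Of 218 variable, diversity, joining and constant segments tested, 100 were lower and none higher, at a median difference of -0.77. Over all genes, 7.44% were lower and 17.8% higher. The segments' median change was -0.32 and -0.4 in the Mettl3 knockouts and 0.28 and 0.47 in the Nudt21 knockouts. Trac, the constant region of the alpha chain, stood at 492 and 488 FPKM in Mettl3 knockouts against 627, 794 and 610 FPKM, and at 841 and 999 FPKM in Nudt21 knockouts against 720 and 690 FPKM (difference -0.83, limma adjusted p = 0.00796). The beta chain constant genes Trbc1 and Trbc2 differed by -0.8 and -0.9. Segments of the gamma locus, which mark another T cell lineage, appear under names that begin with Trg or Tcr. The 4 Trg segments summed to 57 FPKM in Mettl3 knockout 3 and to 82.5 and 67.7 FPKM in Nudt21 knockouts. In the other 6 libraries at 0 h they summed to 4.71 to 10.2 FPKM. The 7 Tcr segments summed to 79.4 FPKM in Mettl3 knockout 3 and to 113 and 84 FPKM in Nudt21 knockouts, against 8.06 to 14.6 FPKM. Reads of near-identical segments are shared, which makes single segments uncertain, and the part of gamma-delta cells in these values was not tested.

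Immediate-early genes, which are induced within minutes of receptor signals or tissue handling, were lower as well. Of 31 tested, 11 were lower, where 7.44% of all genes were, and none higher (median -0.38). Without Mettl3 knockout 1, 12 were lower and 3 higher. Nr4a1, an orphan nuclear receptor that reports TCR signals, stood at 87.3 and 80.9 FPKM in Mettl3 knockouts against 182, 170 and 120 FPKM, and at 135 and 146 FPKM in Nudt21 knockouts against 93.4 and 101 FPKM (difference -1.4, SE 0.22, limma adjusted p = 0.00265). The wild types of the sets also differed (0.67, limma adjusted p = 0.0109). The related Nr4a3 (-1) and Nr4a2 (-1.04), the AP-1 genes Junb (-0.94), Jund (-0.61) and Jun (-0.53), and Dusp1 (-0.84) followed. Members called fell to 4 without Nudt21 knockout 2 and 5 without Nudt21 wild type 1, and Nr4a2 lost its call in both.

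Some components of the targeted machineries other than the targets also passed the test of the difference, though not all shares exceeded those of all genes. Among m6A writers the higher genes numbered 4 of 12 where 17.8% of all genes were higher, and 2 with median-ratio scaling or without Nudt21 wild type 1 or Nudt21 knockout 2. Of 12 m6A writer genes, Mettl3 was lower and 4 were higher: Cbll1 (0.64) and Wtap (0.34), which belong to the writer complex, and the separate methyltransferases Zcchc4 (0.68) and Mettl16 (0.34). Among 11 readers and erasers only Ythdf2, a reader that promotes decay, passed (9.1% higher, where 17.8% of all genes were). It stood at 21.6 and 26.2 FPKM in Mettl3 knockouts against 12.7 to 14.9 FPKM, and at 15.9 and 14.5 FPKM in Nudt21 knockouts against 14.9 and 13.1 FPKM (difference 0.63, limma adjusted p = 0.0101). Of 21 cleavage and polyadenylation factors tested, 4 were higher, a share near the 17.8% of all genes, and 5 lower, against 2 lower without Nudt21 wild type 1 and 3 without Nudt21 knockout 2. The 4 higher factors include the knocked-out Nudt21 itself (1.15). Clp1, a kinase subunit of cleavage factor II, stood at 20.2 and 22.3 FPKM in Mettl3 knockouts against 10.5 to 12.2 FPKM and had a change of 0 with Nudt21 loss (difference 0.88, limma adjusted p = 0.00134). Ssu72, a phosphatase of RNA polymerase II, rose with Mettl3 loss and fell with Nudt21 loss (0.64). Cpsf6, the partner of Nudt21 in cleavage factor I, was lower (-0.51), as were Fip1l1 (-0.63), Papolg (-0.57), Cpsf1 (-0.42) and Pabpn1 (-0.39).

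In the pathways named by the series title and known from earlier work, few members passed the test of the difference. Of 45 genes of mTOR complexes and their upstream regulators, 4 were higher and 2 lower (median 0.14, near the 0.12 of all genes). These are shares of 8.9% and 4.4%, where 17.8% and 7.44% of all genes were higher and lower. The higher genes numbered 7 without Mettl3 knockout 1 and 1 without Nudt21 knockout 2. The arginine sensor Castor1 stood at 20.2 and 18.2 FPKM in Mettl3 knockouts against 8.66, 12 and 11.3 FPKM, and at 10.4 and 10.7 FPKM in Nudt21 knockouts against 11.2 and 12.3 FPKM (difference 0.95, SE 0.18, limma adjusted p = 0.00566). Castor2 (0.65) and Rragb (0.56) were higher, but each lost its call with quantile scaling (limma adjusted p = 0.143 and 0.101). Tsc2, an inhibitor of mTORC1, was lower (-0.38, SE 0.07, limma adjusted p = 0.00468). Mtor itself had a difference of 0.02 (SE 0.11, limma adjusted p = 0.937), Tsc1 of 0.14 and Rptor of 0.15. The difference of Rictor was 0.5 and did not pass (limma adjusted p = 0.0608).

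Socs1, a SOCS inhibitor gene, rose in both knockouts. It stood at 39.7 and 39.2 FPKM in Mettl3 knockouts against 16.9, 14.9 and 19.8 FPKM, and at 45.1 and 44.8 FPKM in Nudt21 knockouts against 19.2 and 20.2 FPKM. The changes were 1.16 and 1.15 and the difference 0.01 (SE 0.14, limma adjusted p = 0.966), small beside its error. Socs3 rose in both (1.3 and 0.96), with wild types that differed between the sets (-1.27). Cish, an inhibitor of STAT5 signalling, was the 1 member of 8 that passed (12.5% higher, where 17.8% of all genes were). It stood at 24 and 26.9 FPKM in Mettl3 knockouts against 8.35 to 9.24 FPKM and 13.7 and 13.3 FPKM in Nudt21 knockouts against 9.25 and 6.95 FPKM (difference 0.73, limma adjusted p = 0.00953). Its call was lost with library weights (limma adjusted p = 0.0637). Of 27 cytokine receptor, JAK and STAT genes, 5 were higher, a share near that of all genes, and 4 lower (8 and 5 without Mettl3 knockout 1). Il15ra (1.13), Il4ra (0.79) and Ifngr1 (0.61) were higher, and Ptpn6, a phosphatase that restrains receptor signals, was lower at 77.8 and 90.9 FPKM in Mettl3 knockouts against 113 to 135 FPKM and 240 and 261 FPKM in Nudt21 knockouts against 182 and 165 FPKM (difference -1.11, SE 0.14, limma adjusted p = 0.0012). Il7r had a difference of 0.84 (SE 0.36) that did not pass (limma adjusted p = 0.115).

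Of 32 genes of the unfolded protein and integrated stress responses, 8 were higher (25% against 17.8% of all genes) and none lower, at a median of 0.26. Without Mettl3 knockout 1, 17 were higher and 1 lower (median 0.41), and without knockout 3, 7 were higher and 1 lower (median 0.11). Sdf2l1, an endoplasmic reticulum chaperone component, stood at 14.2 and 22.8 FPKM in Mettl3 knockouts against 6.1 to 7.41 FPKM and at 11.3 and 11.9 FPKM in Nudt21 knockouts against 11.9 and 11.2 FPKM (difference 1.25, limma adjusted p = 0.00499). Targets of the factor ATF4 were among them, with Trib3 (1.12), Psat1 (1.1), Shmt2 (0.86) and Mthfd2 (0.77). Of 35 apoptosis regulators 6 were higher, a share near the 17.8% of all genes, with 12 higher without Mettl3 knockout 1 and 8 higher and 2 lower without knockout 3. Among them were the death effector gene Bcl2l11 (0.76) and the inhibitor Xiap (0.72), so the called members have opposed roles. Xiap stood at 6.46 and 5.16 FPKM in Nudt21 knockouts against 9.92 and 10.5 FPKM and at 16.4 and 17 FPKM in Mettl3 knockouts against 15.2 to 18.1 FPKM. Bcl2 rose in both knockouts (0.91 and 0.59) and its difference of 0.32 did not pass (limma adjusted p = 0.101). The p53 target Phlda3 rose in both, to 4.56 and 4.35 FPKM from 0.255 to 0.589 FPKM and to 11.5 and 9.05 FPKM from 0.658 and 0.708 FPKM. Its difference of -0.8 was lost with a pseudocount of 0.1 FPKM (-0.57, limma adjusted p = 0.3).

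Among activation markers, 7 of 25 were higher and 2 lower, where 17.8% and 7.44% of all genes were. The list depended on the library used: 13 were higher and 2 lower without Mettl3 knockout 1 (median 0.5), and 7 higher and 8 lower without knockout 3 (median -0.14). Slc7a5, a subunit of a large amino acid transporter, stood at 28.1 and 28 FPKM in Mettl3 knockouts against 18.3, 19.6 and 20.7 FPKM, and at 14.7 and 14.1 FPKM in Nudt21 knockouts against 26.2 and 24.6 FPKM (difference 1.28, SE 0.14, limma adjusted p = 0.000653). Irf4, a transcription factor induced by TCR signals, stood at 9.56 and 11.6 FPKM in Mettl3 knockouts against 3.35 to 3.77 FPKM, and at 3.06 and 2.6 FPKM in Nudt21 knockouts (difference 1.09, limma adjusted p = 0.00188). Icos, a costimulatory receptor gene, was higher (1.36), and Cd40lg (-0.73) and Tnfrsf18 (-0.68) were lower. Of 24 naive-state factors, 2 were higher and 2 lower, with 2 and 7 without Mettl3 knockout 1 and 6 and 2 without knockout 3. The egress receptor S1pr1 (0.98) and Klf3 (0.44) were higher and Id3 (-1.78) and Foxp1 (-0.73) lower. Of 17 regulatory and anergy genes 1 was higher and 2 lower (7 and 2 without Mettl3 knockout 1). Izumo1r, the folate receptor of anergic and regulatory T cells, stood at 20.1 and 25 FPKM in Mettl3 knockouts against 60.3 to 77.8 FPKM and at 92.3 and 82.7 FPKM in Nudt21 knockouts against 110 and 112 FPKM (difference -1.26, limma adjusted p = 0.0015). Foxp1 lost its call without either Nudt21 wild type (limma adjusted p = 0.0911 and 0.0635).

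Metabolic lists held few calls. Higher were 12.9% of cholesterol and fatty acid synthesis genes and 12.5% of glycolysis genes, under the 17.8% of all genes. Of 31 genes of cholesterol and fatty acid synthesis 4 were higher and none lower, with a median of 0.16 (7 higher without Mettl3 knockout 1, and 1 with either scaling or without Nudt21 wild type 1). Pmvk, a mevalonate pathway kinase, fell with Nudt21 loss from 10.3 and 9.75 FPKM to 6.05 and 6.31 FPKM, against 8.33 and 7.58 FPKM in Mettl3 knockouts and 6.44 to 7.42 FPKM in their wild types (difference 0.78, limma adjusted p = 0.00126). Mvk (0.67) and Elovl6 (0.5) lost their calls with median-ratio scaling (limma adjusted p = 0.0688 and 0.112). Of 24 glycolysis genes 3 were higher (6 without Mettl3 knockout 1, 1 without Nudt21 wild type 1): Slc16a1, a lactate transporter (0.97), Tpi1 (0.94) and the glucose transporter Slc2a1 (0.46). The last 2 lost their calls with median-ratio scaling (limma adjusted p = 0.0511 and 0.0538). Tpi1 stood at 20.6 FPKM in Mettl3 knockout 1 and 37.8 FPKM in knockout 3.

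A few ribosomal protein genes were lower. Of 77, 8 were lower, a share near the 7.44% of all genes, and none higher, at a median of -0.29. Their wild types differed between the sets, with 39 of 77 higher in the Mettl3 set (7.31% of all genes were), and with Nudt21 loss 41 rose (8.73% of all genes did). Rpl31 stood at 334 and 240 FPKM in Mettl3 knockouts against 327 to 367 FPKM and at 340 and 371 FPKM in Nudt21 knockouts against 230 and 269 FPKM (difference -0.79, limma adjusted p = 0.015). The count was 20 with median-ratio scaling, 2 with quantile scaling, 23 without Mettl3 knockout 1, 1 without knockout 3, 18 without Nudt21 knockout 1 and 0 without Nudt21 wild type 1 or Nudt21 knockout 2, and Rpl13a went from -0.58 to 0.06 with quantile scaling (limma adjusted p = 0.844). No mitochondrially encoded gene of 13 passed, at a median of -0.57 that stood at -0.99, with 10 lower, without Mettl3 knockout 3.

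Genes that changed alike in both knockouts included effector genes in which the libraries of a group were far apart. Gzma, a granule protease gene, stood at 6.03 FPKM in Mettl3 knockout 1 and 74.1 FPKM in knockout 3, against 0.755 to 1.41 FPKM in their wild types, and at 14 and 15.5 FPKM in Nudt21 knockouts. Nkg7, another granule gene, had 8.23 and 84.5 FPKM in the Mettl3 knockouts and 52.1 and 45.7 FPKM in the Nudt21 knockouts. Its difference was -0.31 (SE 1.05), 1.29 without Mettl3 knockout 1 and -1.92 without knockout 3, so its sign rests on which library is used. Ifitm3, an interferon-induced gene that myeloid cells also express, behaved alike at 0.04, 1.17 and -1.08. Plac8 rose in both (4.63 and 2.66) with 27.8 and 144 FPKM in Mettl3 knockouts and 49.4 and 47.8 FPKM in Nudt21 knockouts. More even were the genes that fell in both, such as Adh1, an alcohol dehydrogenase gene, with 2.81 and 1.18 FPKM in Mettl3 knockouts against 7.56, 10.3 and 9.48 FPKM and 2.22 and 2.41 FPKM in Nudt21 knockouts against 9.91 and 9.18 FPKM (difference -0.13, SE 0.31, limma adjusted p = 0.792). Man1c1, a Golgi mannosidase gene (-0.12), Appl2 (-0.24), Lypd6b (0.25), Ttc28 (0.27) and Slc35g1 (-0.14) likewise fell in both with no call of the difference.

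Lists of other cells, effector cells and the cell cycle were among those whose changes lay far apart between the Mettl3 knockout libraries. B cell (19 tested), myeloid (18) and erythroid and platelet markers (8) had no called member in the difference, where 17.8% of all genes were higher and 7.44% lower. Their median changes were -0.24, -0.15 and -1.17 in Mettl3 knockout 1, and 1.62, 3.29 and 2.78 in knockout 3. In Nudt21 knockouts they were 1.02 and 1.65, 1.37 and 1.83, and 0.8 and 0.62. Of 31 effector and cytotoxic genes 3 were higher (9.7%). Their median change was 0.35 in Mettl3 knockout 1 and 2.39 in knockout 3, and 0.7 and 0.67 in Nudt21 knockouts. Of 40 cell cycle genes only E2f2, a factor of S phase entry, was higher, at 16.4 and 19.2 FPKM in Mettl3 knockouts against 5.39 to 6.43 FPKM and 10.5 and 10.4 FPKM in Nudt21 knockouts against 8.2 and 8.5 FPKM (difference 1.16, SE 0.12, limma adjusted p = 0.000536). The median change of the 40 genes was 0.18 in Mettl3 knockout 1 and 1.21 in knockout 3, and 0.25 and 0.17 in Nudt21 knockouts. Of 15 CD8, NK and gamma-delta T cell markers only Prf1, the perforin gene, was higher (1.89, limma adjusted p = 0.00662), at 34.5 and 40.6 FPKM in both Mettl3 knockouts against 11.2 to 19.7 FPKM. The median change of that list was 0.09 in Mettl3 knockout 1 and 2.61 in knockout 3, and 0.97 and 1.08 in Nudt21 knockouts. Cd8b1 stood at 19 and 21.5 FPKM in Mettl3 knockouts and at 20.8 and 21.1 FPKM in Nudt21 knockouts, against 7.32 to 11.3 FPKM in the 5 wild types, with a difference of 0.26 that did not pass (limma adjusted p = 0.276). The part of other cells in the differences was not tested.

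**Figure D5:**
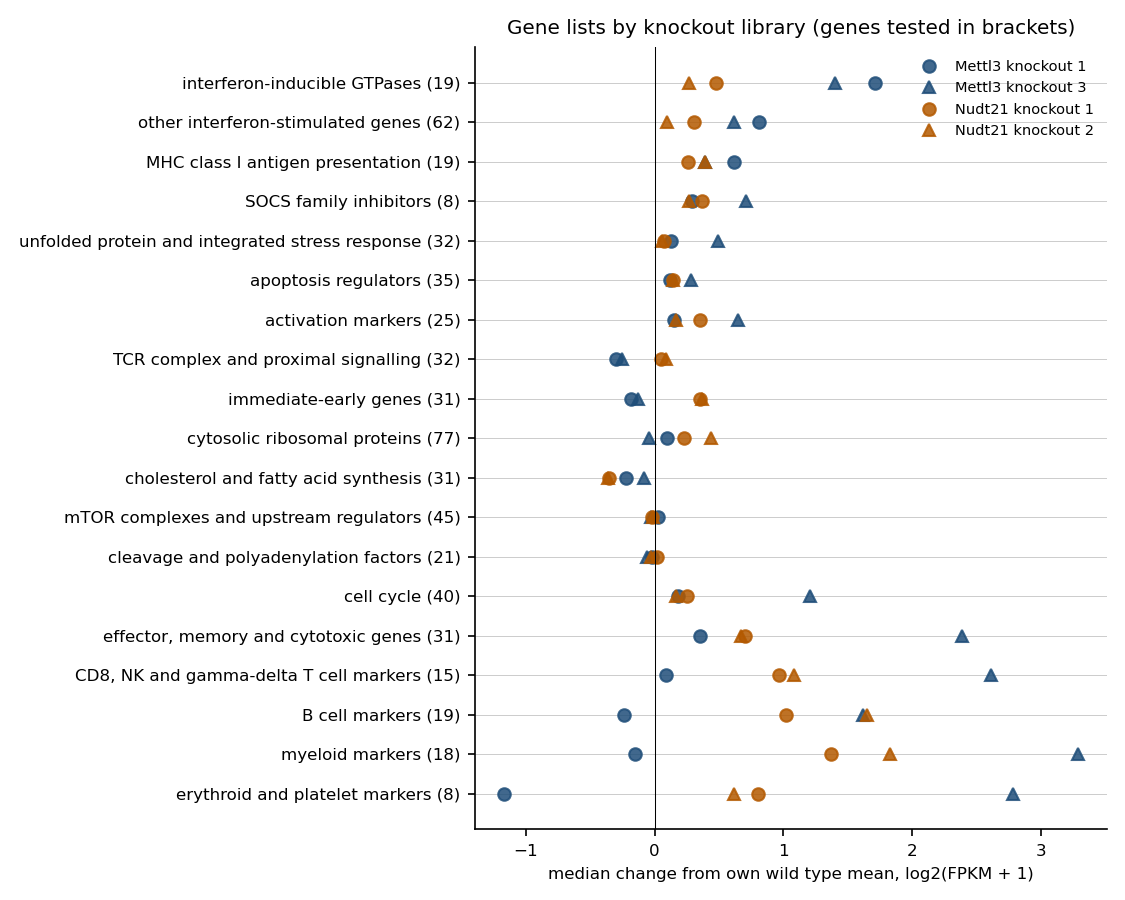
Median change of each gene list from its own wild type mean in the 4 knockout libraries (log2 scale, genes tested in brackets). Interferon, TCR and immediate-early lists separate the sets, whereas in effector, cell cycle and other-cell lists Mettl3 knockout 3 lies far from knockout 1.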

How the data were processed

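RNA sequencing of 12 libraries was analysed from the deposited table of FPKM per gene (32285 genes). Bowtie and mm10 are listed, per the submitters' processing notes, without a version or a stated role. The FPKM tool, annotation and use of strand are not given in the sources used here. FPKM divides by a gene length, and whether the length used follows a changed polyadenylation site is unknown. The effect of this was not tested. Read numbers and so depth are unknown, and no counting interval is given.

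The filter asked for 1 FPKM or more in 2 or more of the 12 libraries, those at 48 h included, and left 12511 genes. Over the 0 h libraries alone it left 11692 genes, of which 2252 were called higher and 939 lower. Values were analysed as log2(FPKM + 1), which understates changes of low genes. A model with 5 groups was fitted to 12 libraries in R 4.3.3 by limma, version 3.58.1, with a trended empirical Bayes step (7 residual degrees of freedom), tested on simulated data, with Benjamini-Hochberg adjustment over all genes tested and a threshold of 0.05. Alternatives were other pseudocounts, filters, scalings, weights, a replicate block and leaving out each library. Positions, biotypes and overlaps came from GENCODE M21.

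The members and the 31 gene lists were chosen with earlier results of these data known. Named were the 12 genes of largest called difference in each direction (no overlap of the knockout libraries' changes between the sets, mean of at least 5 FPKM in a group, predicted genes, pseudogenes, receptor segments and sex-linked genes left out), up to 3 called members per list, 6 per pattern of joint or opposed calls, and a fixed set. The text prints part of them, some items are not reported here, and other members and neighbouring genes in it were picked after their values were seen.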

Additional observations from a re-analysis of the deposited data

Results flagged for a closer look

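The difference between the knockouts' effects is itself a test of whether the same change differs between the sets, and 3164 genes passed it. Of the genes named by the rule, 24 were in addition called in each knockout in opposite directions. Part of them were named for that pattern, so the count does not measure how common it is. Over all 12511 genes, 282 rose with Mettl3 and fell with Nudt21 loss, and 116 did the reverse. Raised with Mettl3 loss and lowered with Nudt21 loss were Tstd1 (difference 2.91), Carns1 (2.89), Nacc2 (2.73), Il3ra (1.78), Pmm1 (1.51), Doc2g (1.43), Icos (1.36), Slc7a5 (1.28), S1pr1 (0.98), Slc16a1 (0.97) and Ssu72 (0.64). The reverse was found for Sp6 (-2.54), Klc3 (-2.01), Lman2l (-1.92), Id3 (-1.78), Hist3h2a (-1.72), Gtf2ird1 (-1.41), Nr4a1 (-1.4), Smox (-1.24), Ptpn6 (-1.11), Nr4a3 (-1), Cd3g (-0.94), Lck (-0.87) and Trac (-0.83). Groups of 2 or 3 libraries were too small to test for a stray library.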

How the results depend on the processing

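Counts of called genes moved with scaling, weights and single libraries. Genes called higher and lower numbered 1299 and 1439 with median-ratio scaling, 1072 and 1141 with quantile scaling, and 1440 and 595 with library weights, against 2233 and 931. Leaving out 1 library gave 1213 to 3239 higher and 513 to 1412 lower genes. The lowest counts came without Nudt21 wild type 1 (1267 and 559), Nudt21 wild type 2 (1279 and 513) or Nudt21 knockout 2 (1213 and 532), fits in which the lone library is assumed to vary like the other groups. Without Mettl3 knockout 3 there were 2284 and 1412. Of 86 named genes with a call, 62 kept it in all settings, but the naming rule favoured large differences in the main fit. With other pseudocounts, filters, scalings or weights, the share of all 3164 calls that was kept varied. It ran from 58.7% with quantile scaling to 99.1% with a pseudocount of 0.5 FPKM. The share was 63.1% with library weights and 70.5% with median-ratio scaling. The difference changed sign for Rpl13a with quantile scaling (0.06), for Nkg7 without Mettl3 knockout 1 (1.29, against -1.92 without knockout 3) and for Ifitm3 without Mettl3 knockout 3 (-1.08, against 1.17 without knockout 1); the cause was not tested. The replicate block gave 1656 higher and 705 lower genes and 1 ribosomal protein gene, and ended 14 calls of named genes: Castor2, Elovl6, Gzmb, Ifit1bl1, Mvk, Nr4a2, Phlda3, Rpl13a, Rpl35a, Rragb, Tap1, Tap2, Tpi1 and Xpc. Deviations of same-numbered libraries from their group means correlated at 0.143 and 0.219 between Mettl3 wild types and knockouts, at 0.228 to 0.319 between Mettl3 wild types at 0 h and 48 h, and at -0.12 in the Nudt21 set, so the numbers were not shown to pair samples across both sets. A crossed pairing of the Nudt21 set, chosen after seeing the data, gave 1752 and 773. Sequencing depth is unknown, so its limits cannot be stated.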

Other observations

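The called genes were set beside properties of their annotated transcripts. Protein-coding genes called higher at least 2-fold had a median transcript length of 2590 bases (quartiles 1510 and 3800), and those called lower 2280 bases (1690 and 3350), against 2990 bases (1900 and 4460) over 11184 genes. The median 3′ UTR was 948 bases in the former, 616 bases in the latter and 1080 bases over all. With median-ratio scaling these medians were 1020 and 660 bases. The lengths are those of annotated models and do not measure the ends used in these cells.

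A coding neighbour on the same strand ended within 5000 bases before the start of 15% of the 11193 protein-coding genes tested. The share was 22% (18 of 82) among genes lower at least 2-fold and 13.7% (32 of 234) among those higher at least 2-fold. Gp5 after Atp13a3 and Mss51 after Ppp3cb are such pairs. By chromosome, the share of genes called ranged from 21.4% to 29.7% over the autosomes other than chromosome 14, where it was 32.3%. That chromosome holds the alpha and delta receptor loci and also the targeted Mettl3 gene, and the part of either in its share was not tested.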
